A study of Mus musculus with 49 samples.

Results

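MT2A, MT2B and MT2C are LTRs of the ERVL class of endogenous retroviruses in the mouse genome. Their insertions were described in single late 2-cell embryos after loss of function (LOF) of TBP, from the tables of reads per insertion. An insertion was included when its annotated name began with MT2A, MT2B or MT2C and when 1 read or more was counted for it in 25% or more (5 or more) of the 18 embryos that reached 500000 counted reads. This gave 1241 of the 38572 annotated insertions of these names, of which 4241 had a read in any embryo, and 1241 of the 40760 transposable element (TE) insertions of all kinds that met the same condition. They comprised 57 insertions of MT2A, 182 of MT2B, 149 of MT2B1, 233 of MT2B2 and 620 of MT2C_Mm. MT2_Mm, the LTR of MERVL, was not included and served for comparison.

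LTRs carry the promoter of an endogenous retrovirus, and after recombination has removed the inner part they persist as solo LTRs that can start transcription on their own. MT2_Mm and MERVL are among the best known transcripts of the 2-cell embryo. MT2A, MT2B and MT2C are relatives of MT2_Mm, and ORR1A0 and ORR1A1 are LTRs of the MaLR class, which is related to ERVL. TBP, the TATA-box binding protein, belongs to the general transcription machinery as a subunit of TFIID. Positions and sequences of the insertions were not used here.

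All embryos were F1(C57BL/6JxCBA/H). As zygotes they received an antibody and, 4 h later, mRNA for mCherry-Trim21, a ubiquitin ligase that directs antibody-bound protein to degradation (Trim-Away). TBP LOF embryos received an antibody to TBP and their CONTROL embryos mouse IgG, so that both groups carried an antibody and mCherry-Trim21. FOXJ3 LOF embryos received an antibody to FOXJ3, a forkhead transcription factor, and their CONTROL embryos rabbit IgG. These were prepared in 2 library batches and had counts per TE family only. Each embryo was lysed 48 h after hCG and sequenced as 1 library with Smart-seq+5', of which reads from the 5' ends of transcripts were counted. In the TBP experiment 9 LOF and 9 CONTROL embryos were compared, after 1 CONTROL embryo under the read minimum was left out, and in the FOXJ3 experiment 16 LOF and 13 CONTROL embryos. Groups follow the labels, and the number of embryos collected per TBP group differs between the labels and the study's methods. The sources used here do not say which TBP embryos were collected in the same round, and no term for the round was fitted.

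TBP LOF embryos had between 1295251 and 4166903 counted reads (median 1706256) and CONTROL embryos between 1160150 and 5434808 (median 1551711). ERCC spike-ins made up 2.67% to 6.12% of reads in LOF and 2.22% to 3.25% in CONTROL embryos. Levels were scaled to these spike-ins and are given as scaled reads per embryo, not per cell. All embryos were labelled late 2-cell, and cell counts of single embryos were not given. Tbp mRNA, which Trim-Away does not target, had 196, 279.5 and 672 scaled reads in the lowest, median and highest CONTROL embryo and 6.59, 83.3 and 151 in LOF embryos, without overlap. It was lower by edgeR's quasi-likelihood test with Benjamini-Hochberg adjustment (log2 fold change -2.14 ± 0.37 SE, adjusted p = 5.26e-06), and also under TMM scaling, which takes the bulk of genes and TEs as not changed (-1.31, adjusted p = 0.00211). All 6 markers of the late 2-cell stage had reads, and their sum, in counts scaled to equal library totals (CPM), was 86.9 to 265 CPM in CONTROL and 243 to 413 in LOF embryos. Of these, 1 was higher with spike-ins (Usp17lc, 1.38 ± 0.40, adjusted p = 0.00516) and 0 lower by edgeR's quasi-likelihood test (1, Zscan4c, at an unadjusted p below 0.05), and under TMM 3 were higher and 0 lower. Of 9 markers of cumulus and granulosa cells, Has2, Ptx3, Fshr and Inha were at 0, and the sum of the list was 0 to 24.1 CPM in CONTROL and 0 to 8.90 in LOF embryos. Of the 4 that could be tested, Tnfaip6 was lower (-2.46 ± 0.75, adjusted p = 0.00866) and 0 were higher by edgeR's quasi-likelihood test, also 0 at an unadjusted p below 0.05, and under TMM Tnfaip6 was not called (adjusted p = 0.101) and Foxl2 was higher (adjusted p = 0.0409). The 7 oocyte markers all had reads and summed to 746 to 2274 CPM in CONTROL and 1744 to 3195 in LOF embryos. With spike-ins 1 of these 7 was lower (Zp3, -1.83 ± 0.34, adjusted p = 2.29e-05) and 0 higher by edgeR's quasi-likelihood test (1, Bmp15, at an unadjusted p below 0.05), and under TMM 1 was lower and 5 higher. The 4 markers of later stages summed to 24.1 to 51.0 CPM in CONTROL and 9.27 to 36.4 in LOF embryos, and of the 2 that could be tested Gata4 was lower with spike-ins (-1.34 ± 0.33, adjusted p = 0.00127) and not under TMM (adjusted p = 0.133). In the fit behind these marker counts 29.7% of all features were lower and 1.34% higher with spike-ins, and 12.7% and 12.8% under TMM. The part of these differences in the values of the MT2 insertions was not tested.

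The families differed in the share of annotated insertions that met the condition. For MT2C_Mm it was 30.3% of 2046 insertions, for MT2B2 6.08% of 3833, for MT2B1 1.97% of 7549, for MT2B 1.24% of 14723 and for MT2A 0.547% of 10421, against 1.05% of all annotated TE insertions. The condition does not use the difference between groups, but an insertion can meet it through 1 group alone. Of the 1241 insertions, 57 had no read in any LOF embryo and 2 had none in any CONTROL embryo. At the edge of the condition, the 151 insertions with reads in 5 embryos had a median of 11 reads in all (5 to 58), and the 210 left out with reads in 4 embryos a median of 8 (4 to 73). A read in each of the 18 embryos was found for 148 insertions, of which 67 were MT2C_Mm and 1 was MT2A.

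Reads were unevenly spread within families. One insertion, MT2C_Mm_dup1348_MT2C_v, held 247220 of the 520343 reads of the 620 MT2C_Mm insertions. As a share of the scaled reads of all annotated insertions of its family, the leading insertion reached 44.4% in MT2C_Mm, 36.9% in MT2B1 (MT2B1_dup4621), 32.9% in MT2B (MT2B_dup9633), 21.9% in MT2B2 (MT2B2_dup1800) and 9.80% in MT2A (MT2A_dup7554). The number in a name is a running number within the family. Of the 10 leading MT2C_Mm insertions, 6 belonged to subfamily MT2C_v and had numbers from 1340 to 1351. Copies of closely similar sequence can share reads, and the sources used here do not say how such reads were divided, so that values of single copies in such groups are uncertain.

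To ask how these insertions responded to loss of TBP, each was tested in 1 fit with genes and all other TE insertions. At an adjusted p below 0.05, 309 of the 1241 insertions were lower in TBP LOF embryos (24.9%) and 16 were higher (1.29%). Over all 59207 genes and insertions tested 14.6% were lower and 0.76% higher, and over the TE insertions alone 11.6% were lower and 0.844% higher. All 57 insertions without a LOF read were among the 309 and both without a CONTROL read among the 16. They met the read condition through 1 group alone and had to differ. Of the 1182 insertions with a read in both groups, 252 were lower (21.3%) and 14 higher (1.18%). Among all features with a read in both the shares were 12.8% and 0.457%, and among such TE insertions 9.18% and 0.504%. A read in both groups does not remove every insertion that met the condition through 1 group. MT2B_dup13292, with reads in 7 CONTROL embryos and 1 LOF embryo, was among the 252. The share of such insertions was not computed, here or among all features. The median log2 fold change was -1.43 for the MT2 insertions and -0.69 for all features tested. A negative value was found for 80.3% of the MT2 insertions and 66.8% of all TE insertions. With insertions that had no read in 1 group set at the bound that 3 reads over the group allow, the median was -1.42.

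The split between lower and higher depended on the scaling. With TMM the median of all features was -0.06 and that of the MT2 insertions -0.81. Under TMM 174 MT2 insertions were lower (14%) and 31 higher (2.50%), and all 174 were among the 309, while over all features 6.76% were lower and 2.63% higher. The lead over all features, genes included, also depended on the filter. With edgeR's filterByExpr, which tested 240 of the insertions, 100 were lower (41.7%), against 37.8% of all 11544 features tested, and with a mean of at least 10 reads 130 of 313 were (41.5%), against 32.9%. The share of TE insertions alone was not computed under these 2 filters. In the main fit, 38.7% of the MT2 insertions with a mean of 10 to 30 reads were lower, against 14.6% of TE insertions.

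**Figure D1:**
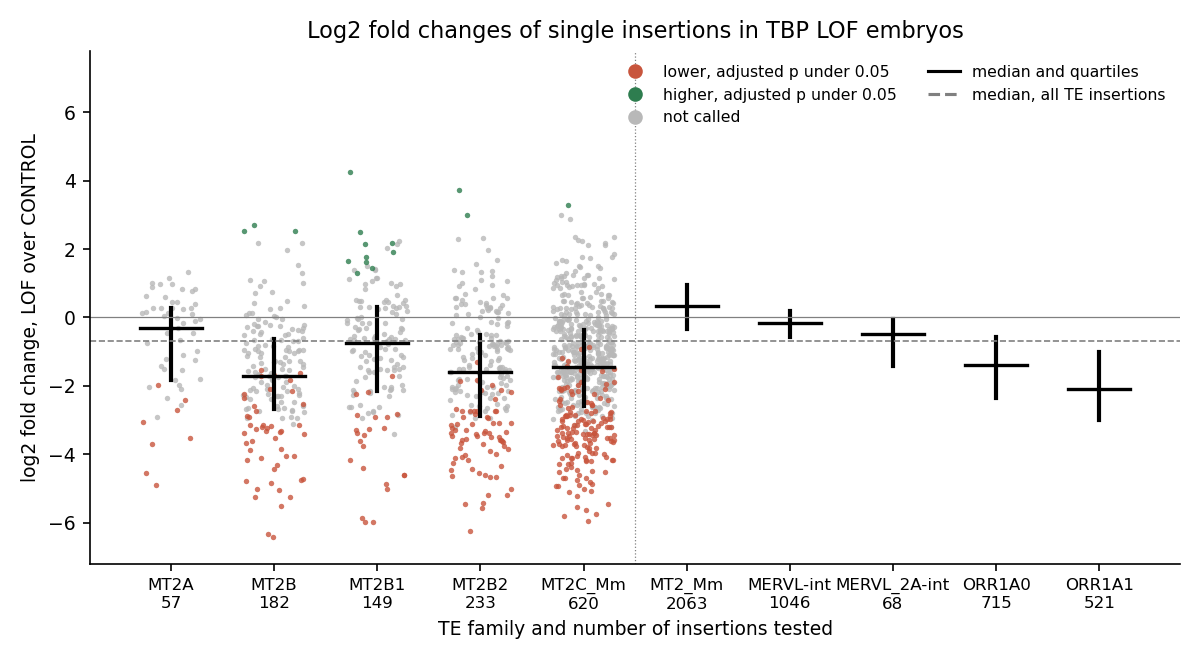
Log2 fold changes (LOF over CONTROL, vertical axis) of the tested insertions by family, with the number of insertions under each name, 1 point per insertion for the MT2A, MT2B and MT2C families coloured by the call at adjusted p below 0.05, and medians and quartiles as black bars. The medians of MT2B (-1.70), MT2B2 (-1.60) and MT2C_Mm (-1.46) lie below the dashed line for all TE insertions (-0.69), and those of MT2A (-0.31) and MT2_Mm (0.35) above it.

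Of MT2B2, 71 of 233 insertions were lower (30.5%) and 2 higher. Of MT2B, 48 of 182 were lower (26.4%) and 3 higher, and of MT2C_Mm 159 of 620 were lower (25.6%) and 1 higher. MT2B1 had 23 lower (15.4%) and 10 higher (6.71%) of 149, and a median of -0.74. MT2A had 8 lower of 57 (14%) and 0 higher by edgeR's quasi-likelihood test, also 0 higher at an unadjusted p below 0.05 and 0 by DESeq2. The lower shares of MT2A and MT2B1 were near the 14.6% of all features tested. With a read in both groups, where the background was 12.8%, the lower insertions were 59 of 220 in MT2B2 (26.8%), 36 of 170 in MT2B (21.2%), 134 of 595 in MT2C_Mm (22.5%), 18 of 143 in MT2B1 (12.6%) and 5 of 54 in MT2A (9.26%). Higher in this set were 9 of 143 in MT2B1 (6.29%) and 3 of 170 in MT2B (1.76%), against a background of 0.457%. Some of these copies had close numbers and may share reads, so that the counts need not stand for separate insertions. MT2B2 and MT2C_Mm had 1 higher each and MT2A 0. Among LTRs outside these families, ORR1A1 had 181 of 521 lower (34.7%, median -2.09) and ORR1A0 152 of 715 (21.3%, median -1.40). With a read in both groups these were 152 of 492 (30.9%) and 142 of 705 (20.1%). MT2_Mm had 33 lower and 54 higher of 2063, and with a read in both groups 33 and 51 of 2060. MERVL-int, the internal part of MERVL, had 8 lower and 2 higher of 1046.

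The share of lower calls differed with the read level. Among insertions with a mean of over 30 reads per embryo, 56 of 163 MT2 insertions were lower (34.4%) and 10 higher (6.13%), against 14.4% lower and 2.01% higher of 2336 TE insertions. In this class 10 of 15 MT2B insertions were lower and 3 higher, and 29 of 67 MT2C_Mm insertions were lower. The 36 MT2B1 insertions of this class had 5 lower, 7 higher and a median of -0.026. Among insertions with a mean under 3 reads and a read in both groups, 79 of 606 MT2 insertions were lower (13%), against 6.25% of 24544 TE insertions, and 54 more lower ones had no LOF read. The 252 lower insertions with a read in both groups had log2 fold changes from -6.35 to -0.88, and in 223 of them the CONTROL median exceeded all 9 LOF embryos. This follows in part from their choice as lower calls, and the share among all lower features was not computed. In 59 insertions every LOF embryo was below every CONTROL embryo (32 MT2C_Mm, 15 MT2B2, 6 MT2B, 6 MT2B1 and 0 MT2A), and in 0 was every LOF embryo above. The 59 were 4.75% of the 1241, against 0.785% of all TE insertions and 2.71% of all features tested. Every LOF embryo was above in 0 TE insertions and in 2 of all features (0.00338%).

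In MT2C_Mm, the insertion with the most reads of the 1241, MT2C_Mm_dup1348_MT2C_v, had 11418, 15418 and 21894 scaled reads in the lowest, median and highest CONTROL embryo and 2511, 8892 and 15855 in LOF embryos. The groups overlapped, and the CONTROL median exceeded 8 of 9 LOF embryos (log2 fold change -0.88 ± 0.26 SE, adjusted p = 0.0239). This call was lost under TMM (-0.15, adjusted p = 0.785) and without LOF embryo 2 (-0.79, adjusted p = 0.0514). MT2C_Mm_dup1351_MT2C_v had 1892, 2344 and 4025 in CONTROL and 116, 533 and 1362 in LOF embryos (-1.90 ± 0.38, adjusted p = 0.00154), and in this copy the highest LOF embryo was below the lowest CONTROL embryo. MT2C_Mm_dup1340_MT2C_v had 1573, 2277 and 2706 in CONTROL and 219.7, 975 and 1943 in LOF embryos (-1.27 ± 0.33, adjusted p = 0.00961), with some overlap, and its call was lost under TMM (-0.63, adjusted p = 0.213).

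The smallest adjusted p values among MT2C_Mm insertions belonged to copies that were close to absent in LOF embryos. MT2C_Mm_dup1752_MT2C_v had 28.3, 54.2 and 108 scaled reads in CONTROL and 0, 1.45 and 6.14 in LOF embryos (-4.81 ± 0.62, adjusted p = 2.8e-05). MT2C_Mm_dup496_MT2C_vii had 72.9, 139.7 and 296 in CONTROL and 0, 6.14 and 22.9 in LOF embryos (-4.52 ± 0.59, adjusted p = 3.21e-05). Groups did not overlap in either. For insertions picked by the smallest adjusted p, here and in the other families, such separation follows in part from that choice. The 1 higher insertion, MT2C_Mm_dup1094_MT2C_iv, rested on 31 reads, with 0, 0 and 1.36 scaled reads in CONTROL and 0, 1.45 and 17.5 in LOF embryos (adjusted p = 0.0486 by edgeR's quasi-likelihood test), and its call was lost in 13 of 18 fits that each left out 1 embryo.

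In MT2B, the 3 insertions with the most reads were lower. MT2B_dup9633 had 1805, 2303 and 3783 scaled reads in the lowest, median and highest CONTROL embryo and 43.2, 554 and 1760.4 in LOF embryos (log2 fold change -1.83 ± 0.43 SE, adjusted p = 0.00551). MT2B_dup11325 had 465, 809 and 1274 in CONTROL and 16.9, 254 and 586 in LOF embryos (-1.73 ± 0.44, adjusted p = 0.00962). MT2B_dup10214 had 469.5, 690 and 1119 in CONTROL and 10.3, 94.0 and 345 in LOF embryos (-2.59 ± 0.48, adjusted p = 7.4e-04). Groups did not overlap in MT2B_dup9633 and MT2B_dup10214, and in MT2B_dup11325 the highest LOF embryo was above the lowest CONTROL embryo. Under TMM the calls of MT2B_dup9633 (-1.13, adjusted p = 0.0914) and MT2B_dup11325 (-1.08, adjusted p = 0.106) were lost and that of MT2B_dup10214 was not (-2.06, adjusted p = 0.00538).

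The smallest adjusted p values in MT2B were those of MT2B_dup505 and MT2B_dup11226. MT2B_dup505 had 10.2, 71.5 and 161 scaled reads in CONTROL and 0, 1.21 and 6.35 in LOF embryos (-5.25 ± 0.71, adjusted p = 4.81e-05). MT2B_dup11226 had 5.09, 31.2 and 155 in CONTROL and 0, 0 and 2.46 in LOF embryos (-6.35 ± 0.88, adjusted p = 5.71e-05). In both, every LOF embryo lay below every CONTROL embryo.

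In contrast, 3 MT2B insertions were higher in LOF embryos, and the count was 3 in each fit that left out 1 embryo. MT2B_dup11018 had 6.74, 50.6 and 308 scaled reads in the lowest, median and highest CONTROL embryo and 286, 392 and 681 in LOF embryos (2.69 ± 0.50, adjusted p = 7.24e-04). MT2B_dup11007 had 4.28, 20.8 and 127 in CONTROL and 64.0, 129.6 and 359 in LOF embryos (2.53 ± 0.52, adjusted p = 0.0018). The groups overlapped through CONTROL embryo 2 only, and all LOF embryos lay above the CONTROL median. The third, MT2B_dup11002, had nearly the values of MT2B_dup11007 (CONTROL median 20.8, LOF median 129.6), and these copies may share reads. All 3 higher MT2B insertions had numbers from 11002 to 11018.

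**Figure D2:**
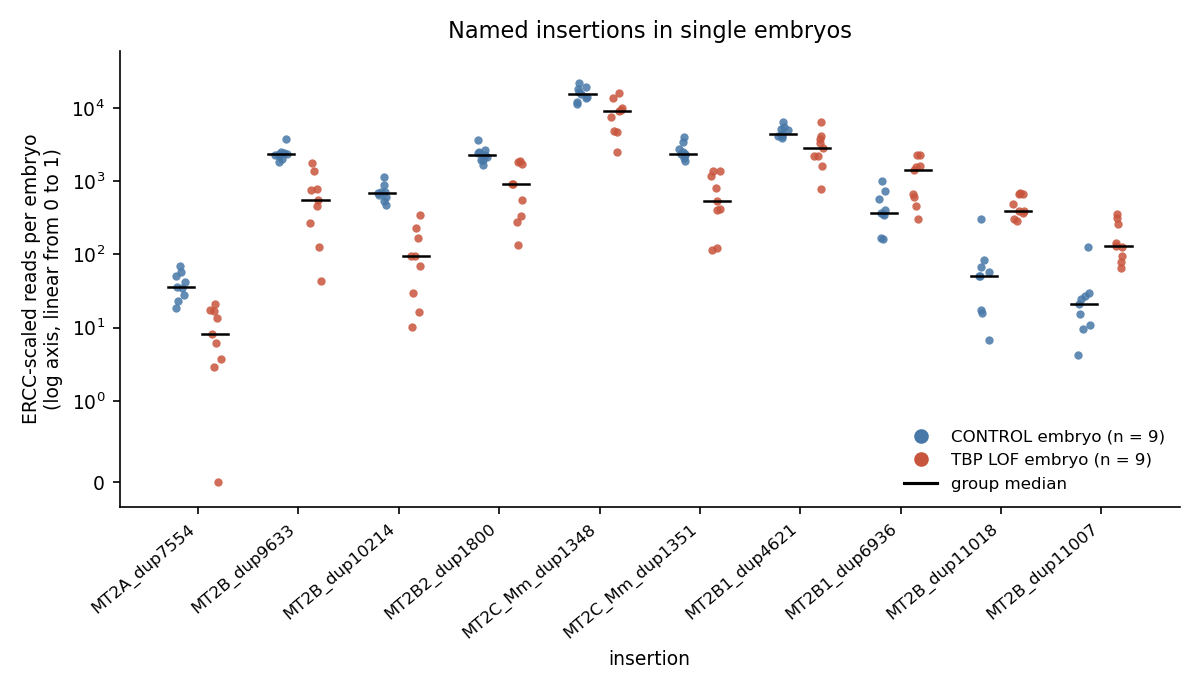
Scaled reads per embryo (vertical log axis, linear from 0 to 1) of 10 named insertions, 1 point per embryo, CONTROL in blue and TBP LOF in red (n = 9 each), with group medians as black bars. The LOF median is below the CONTROL median from MT2A_dup7554 to MT2B1_dup4621 and above it in MT2B1_dup6936, MT2B_dup11018 and MT2B_dup11007.

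MT2B1 held most of the higher insertions. Its leading insertion, MT2B1_dup4621, was not called, with 3857, 4329 and 6311 scaled reads in CONTROL and 787, 2862 and 6303 in LOF embryos (-0.65 ± 0.27, adjusted p = 0.112). MT2B1_dup6936, the next by reads, was higher, with 160.1, 367 and 989 in CONTROL and 302, 1411 and 2285 in LOF embryos (1.45 ± 0.39, adjusted p = 0.0134). MT2B1_dup5714 was also higher, with 1.43, 9.40 and 46.1 in CONTROL and 8.04, 52.2 and 159 in LOF embryos (2.19 ± 0.59, adjusted p = 0.0136). In both, 8 of 9 LOF embryos lay above the CONTROL median and the groups overlapped. MT2B1_dup5689 had a CONTROL median of 492 and a LOF median of 664 and was not called (0.50 ± 0.34, adjusted p = 0.367). Without LOF embryo 10 MT2B1_dup4621 was called lower (-0.86, adjusted p = 0.0249), while under TMM its value was 0.10 and MT2B1_dup5689 was called higher (1.22, adjusted p = 0.0290). Of the 10 higher insertions, 5 had numbers from 5701 to 5722, and whether they share reads was not tested. Another 1 of the 10 had no CONTROL read, met the read condition through LOF embryos alone and had to differ. The count of higher MT2B1 insertions was 6 without LOF embryo 2, LOF embryo 8, CONTROL embryo 5 or CONTROL embryo 8, and 17 under TMM.

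Other MT2B1 insertions were lower. MT2B1_dup3037 had 4.28, 12.2 and 23.0 scaled reads in CONTROL and 0, 0 and 1.21 in LOF embryos (-5.98 ± 0.87, adjusted p = 7.58e-05). MT2B1_dup2644 had 29.97, 48.8 and 135 in CONTROL and 0, 0 and 10.7 in LOF embryos (-5.01 ± 0.78, adjusted p = 1.44e-04). Groups did not overlap in either.

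In MT2B2 the leading insertion was lower. MT2B2_dup1800 had 1671, 2262 and 3576 scaled reads in CONTROL and 134, 896 and 1881 in LOF embryos (-1.31 ± 0.38, adjusted p = 0.0182), with overlap although no LOF embryo reached the CONTROL median, and its call was lost under TMM (-0.68, adjusted p = 0.239). MT2B2_dup1390 and MT2B2_dup2719, the next by reads, were not called (-0.62 ± 0.62 and 0.0059 ± 0.46, adjusted p = 0.574 and 0.996 by edgeR's quasi-likelihood test). The copies with the smallest adjusted p did not overlap between groups, which follows in part from their choice. MT2B2_dup316 had 61.0, 126 and 168 in CONTROL and 1.15, 4.92 and 9.53 in LOF embryos (-4.61 ± 0.45, adjusted p = 3.83e-06), and MT2B2_dup1108 had 30.5, 95.5 and 110.2 and 0, 2.41 and 10.9 (-4.08 ± 0.55, adjusted p = 4.81e-05). The 2 higher insertions, MT2B2_dup1181 and MT2B2_dup1178, rested on 86 and 8 reads. MT2B2_dup1178 met the read condition through LOF embryos alone, without a CONTROL read, which makes it at least 1.81-fold higher in LOF embryos against a floor of 3 reads over the CONTROL group, and its call was lost in 14 of 18 fits that each left out 1 embryo.

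MT2A had the lowest levels. MT2A_dup7554 had 18.6, 36.0 and 69.4 scaled reads in CONTROL and 0, 8.20 and 20.8 in LOF embryos (-1.98 ± 0.54, adjusted p = 0.0135). No LOF embryo reached the CONTROL median, the groups overlapped at their edges, and the call was lost under TMM (-1.09, adjusted p = 0.205). MT2A_dup8886 had 30 reads from 5 CONTROL embryos and 0 from LOF embryos, which makes it at least 14.8-fold lower against a floor of 3 reads over the LOF group. It met the read condition through CONTROL embryos alone and had to differ. MT2A_dup3407 and MT2A_dup4584 were not called (-1.21 ± 0.59 and 1.01 ± 0.73, adjusted p = 0.179 and 0.406 by edgeR's quasi-likelihood test), though without LOF embryo 8 MT2A_dup3407 was called lower (-1.76, adjusted p = 0.0365). The count of lower MT2A insertions was 5 without CONTROL embryo 2, 4 or 10.

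To compare whole families, family totals were tested in 1 fit with the genes. In that fit 29.7% of 19356 genes and TE families were lower and 1.34% higher, and the median log2 fold change was -0.72. Of the 909 TE families alone 28.7% were lower and 0.11% higher, with a median of -0.90. MT2B totals were 5071, 6562 and 9991 scaled reads in the lowest, median and highest CONTROL embryo and 933, 2792 and 4932.1 in LOF embryos, without overlap (log2 fold change -1.26 ± 0.32 SE, adjusted p = 0.00158). MT2C_Mm totals were 28704, 37712 and 44217 in CONTROL and 5285, 16147 and 35639.7 in LOF embryos (-1.02 ± 0.35, adjusted p = 0.0183), with 8 of 9 LOF embryos below all CONTROL embryos. MT2A totals were 233, 336 and 463 in CONTROL and 98.5, 165 and 378 in LOF embryos (-0.84 ± 0.29, adjusted p = 0.0202), with 7 of 9 below. LOF embryo 8 was the highest LOF embryo in all 5 families, and LOF embryo 9 the lowest in all but MT2A, where it was LOF embryo 11.

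MT2B2 and MT2B1 totals did not pass the threshold. MT2B2 had 6637, 9733 and 13449 scaled reads in CONTROL and 954, 4597 and 14520.1 in LOF embryos (-0.73 ± 0.35, adjusted p = 0.110), and was called lower without LOF embryo 8 (-1.04, adjusted p = 0.0131). MT2B1 had 8341, 11178 and 14779 in CONTROL and 4527, 10056 and 16812 in LOF embryos (-0.23 ± 0.32, adjusted p = 0.652), and the 95% interval of its log2 fold change ran from -0.84 to 0.39. Of the comparison families, ORR1A1 (-2.20 ± 0.33, adjusted p = 5.91e-07) and ORR1A0 (-1.59 ± 0.34, adjusted p = 1.69e-04) were lower and MT2_Mm was not called (0.30 ± 0.36, adjusted p = 0.582).

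These calls depended on the scaling. With TMM none of the 5 totals was called, with values of -0.011 for MT2A, -0.44 for MT2B, 0.61 for MT2B1, 0.051 for MT2B2 and -0.21 for MT2C_Mm (adjusted p from 0.0586 to 0.974 by edgeR's quasi-likelihood test). ORR1A1 (-1.45) and ORR1A0 (-0.87) were lower under TMM too, and MT2_Mm was higher (1.04, adjusted p = 0.0079).

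**Figure D3:**
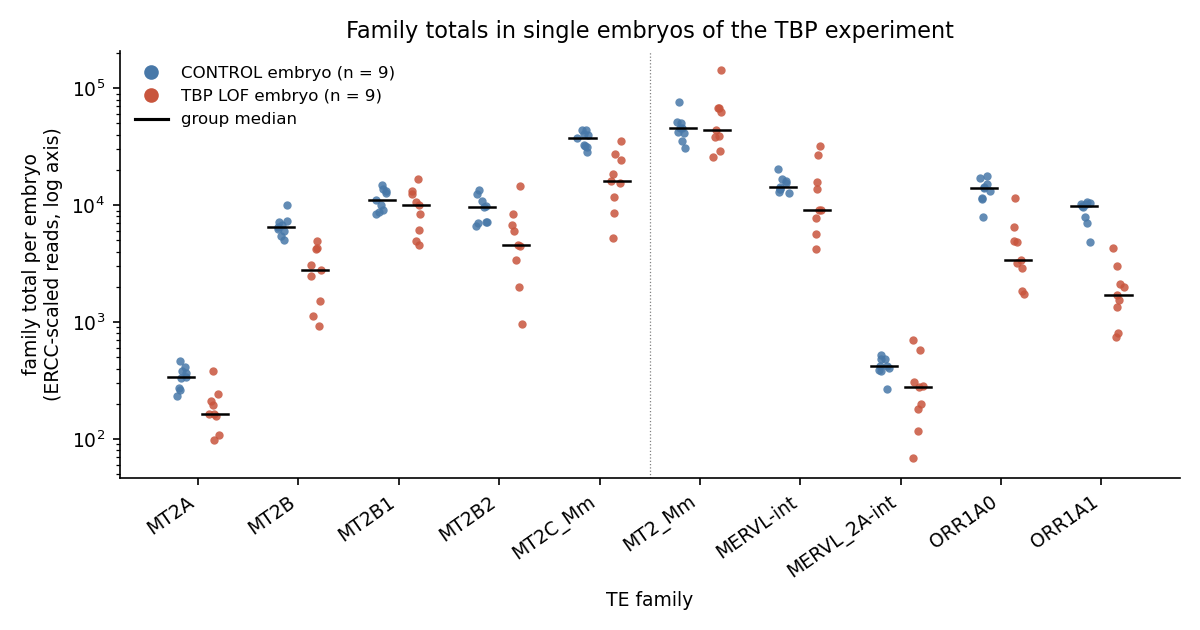
Family totals per embryo in spike-in scaled reads (vertical log axis) for the MT2A, MT2B and MT2C families and, right of the dotted line, for comparison families, 1 point per embryo, CONTROL in blue and TBP LOF in red (n = 9 each), with medians as black bars. LOF and CONTROL embryos do not overlap in MT2B and ORR1A1 and overlap widely in MT2B1 and MT2_Mm.

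The ratio of a pair of family totals within an embryo does not depend on the scaling. Of 35 ratios, 24 differed between groups (two-sided exact permutation test, adjusted over the 35), 13 lower and 11 higher in LOF embryos. Relative to MT2_Mm all 5 families were lower. The log2 ratio of MT2B to MT2_Mm was -3.54, -2.83 and -2.07 in the lowest, median and highest CONTROL embryo and -5.35, -4.09 and -3.88 in LOF embryos, and its mean fell by 1.59 (exact permutation test, p = 4.11e-05, the smallest possible, adjusted p = 1.8e-04). That of MT2C_Mm was -0.81, -0.33 and 0.077 in CONTROL and -2.85, -1.36 and -1.13 in LOF embryos and fell by 1.36 (exact permutation test, adjusted p = 1.8e-04). The ratio of MT2B2 fell by 1.19 with the same adjusted p, and in these 3 families every LOF embryo lay below every CONTROL embryo. The ratio of MT2A fell by 1.06, with 8 of 9 LOF embryos below all CONTROL embryos (exact permutation test, adjusted p = 2.88e-04). The ratio of MT2B1 fell by 0.47, with 4 of 9 below (exact permutation test, adjusted p = 0.0149). With spike-ins the totals of MT2B1 (-0.23) and MT2_Mm (0.30) were themselves not called.

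Relative to ORR1A1 all 5 families were higher in LOF embryos. The mean log2 ratio rose by 2.04 for MT2B1 and 1.45 for MT2A, each with all LOF embryos above all CONTROL embryos (exact permutation test, adjusted p = 1.8e-04 for both). It rose by 1.33 for MT2B2, 1.15 for MT2C_Mm and 0.92 for MT2B (exact permutation test, adjusted p = 8.4e-04, 3.93e-04 and 8.86e-04). Relative to ORR1A0, MT2B differed by 0.35 and did not pass (exact permutation test, adjusted p = 0.0986), while MT2C_Mm (0.58), MT2B2 (0.76), MT2A (0.89) and MT2B1 (1.47) were higher. Relative to MERVL-int, MT2B (-1.03), MT2C_Mm (-0.80) and MT2B2 (-0.62) were lower, and MT2A (-0.49) and MT2B1 (0.092) did not pass. Relative to MERVL_2A-int, a variant of the internal part, MT2B was lower (-0.67; exact permutation test, adjusted p = 0.0171) and the other four did not pass. Without CONTROL embryo 2 or 8 the ratio of MT2B2 to MERVL-int lost its call (-0.55 and -0.56), and without LOF embryo 1 that of MT2B to ORR1A0 passed (0.44).

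**Figure D4:**
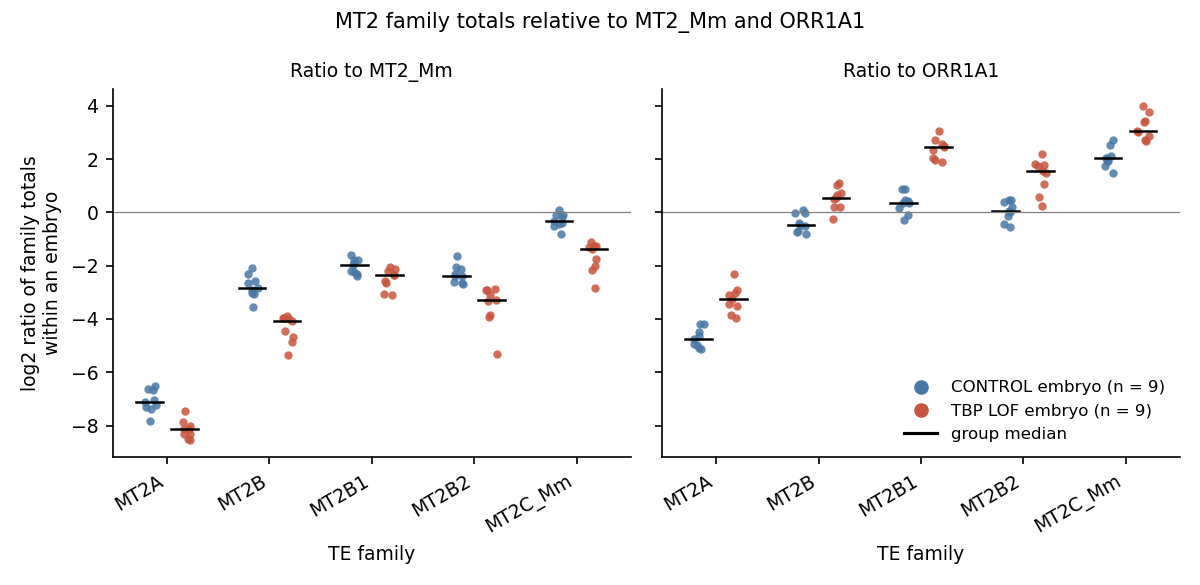
Log2 ratio of the family total to MT2_Mm (left) and to ORR1A1 (right) within each embryo (vertical axis), 1 point per embryo, CONTROL in blue and TBP LOF in red (n = 9 each), with medians as black bars. LOF embryos lie lower than CONTROL embryos on the left and higher on the right, without overlap for MT2B, MT2B2 and MT2C_Mm on the left and for MT2A and MT2B1 on the right.

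Among the families themselves, MT2B1 differed from MT2B, MT2B2 and MT2C_Mm. The mean log2 ratio of MT2B1 to MT2C_Mm rose by 0.89 and that of MT2B to MT2B1 fell by 1.12, both with all 9 LOF embryos outside the CONTROL range (exact permutation test, adjusted p = 1.8e-04 for both). The ratio of MT2B1 to MT2B2 rose by 0.71, with 8 of 9 LOF embryos above the CONTROL range (exact permutation test, adjusted p = 0.00125). The ratio of MT2A to MT2B1 fell by 0.59 (exact permutation test, adjusted p = 0.0171) and that of MT2B to MT2B2 by 0.40 (exact permutation test, adjusted p = 0.0344). That of MT2B to MT2C_Mm fell by 0.23 (exact permutation test, adjusted p = 0.0436). In fits that each left out 1 embryo, the call for MT2B to MT2C_Mm was lost in 11 of 18 and that for MT2B to MT2B2 in 8. The ratios of MT2A to MT2B (0.53), MT2A to MT2B2 (0.13), MT2A to MT2C_Mm (0.30) and MT2B2 to MT2C_Mm (0.17) did not pass.

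Family sums were also compared without their leading insertions, a comparison added after the data were seen. Without MT2C_Mm_dup1348_MT2C_v the mean log2 sum of MT2C_Mm insertions differed by -1.40 between groups, and with it by -1.21 (exact permutation test, adjusted p = 0.00123 for both). MT2B differed by -1.44 with all insertions, -1.16 without MT2B_dup9633 and -1.95 without its 10 leading insertions, and passed each time. MT2B2 differed by -1.04 with all insertions (exact permutation test, adjusted p = 0.0203), -0.87 without MT2B2_dup1800 (exact permutation test, adjusted p = 0.0555) and -1.25 without its 10 leading insertions (exact permutation test, adjusted p = 0.00932). MT2A passed each time, with -0.90, -0.81 and -0.87, and MT2B1 did not, with -0.32, -0.068 and -0.17. A mean of log2 sums gives low embryos more weight than the fits above.

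The share of a family's reads in its 10 leading insertions was 68.3% in the median CONTROL and 73.8% in the median LOF embryo for MT2C_Mm. It was 75.4% and 85.8% for MT2B, 47.2% and 54% for MT2B2, 77.3% and 73.1% for MT2B1, and 39.5% and 38.4% for MT2A. None of these differences passed the threshold (exact permutation test, adjusted p from 0.0991 to 0.679). The choice of 10 mattered for MT2B1, whose mean share differed by -2.93 percentage points with 10 leading insertions and by 1.49 percentage points with 50, which passed (exact permutation test, adjusted p = 0.00288).

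At an equal number of counted reads, fewer insertions were detected in LOF embryos for each family but MT2A, which did not pass the threshold. Spike-ins took a larger part of the reads in LOF embryos (median 4.38% against 2.82% in CONTROL embryos), and their part in this difference was not tested. The number was not computed for all TE insertions, and whether these families differed from that background was not tested. With each library thinned to 1148892 reads, the expected number of MT2C_Mm insertions with a read was 402, 502 and 539.6 in the lowest, median and highest CONTROL embryo and 209.7, 329.9 and 441 in LOF embryos (exact permutation test, adjusted p = 4.11e-04). For MT2B the medians were 205 and 114 and for MT2B2 213 and 135 (exact permutation test, adjusted p = 3.09e-04 for both). MT2B1 had 136 and 108 (exact permutation test, adjusted p = 0.0037). MT2A had 59.8 and 50.9 and did not pass (exact permutation test, adjusted p = 0.0546), whereas without thinning it passed, with medians of 76 and 65 (exact permutation test, adjusted p = 0.0280).

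MT2C_Mm insertions are annotated as 9 numbered subfamilies and MT2C_Mm itself, and the totals of 6 of these 10 were lower, a comparison added after the data were seen. In the fit with these totals 29.8% of all 19370 features were lower and 1.34% higher, and under TMM 12.7% and 12.9%. MT2C_i had 1909, 2223 and 3144 scaled reads in CONTROL and 151, 696 and 1856 in LOF embryos, without overlap (-1.65 ± 0.35, adjusted p = 1.57e-04). MT2C_vii had 1787, 3307 and 4317 in CONTROL and 164, 818 and 2382 in LOF embryos, with overlap although no LOF embryo reached the CONTROL median (-1.64 ± 0.34, adjusted p = 1.15e-04). MT2C_iii (-1.44), MT2C_Mm itself (-1.39), MT2C_iv (-1.26) and MT2C_v (-1.03) were also lower. MT2C_Mm_dup1348_MT2C_v alone held 247220 of the 348791 reads of the 39 MT2C_v insertions. The 13 MT2C_iv insertions had 1045 reads in all. MT2C_ix (-0.79), MT2C_ii (-0.57), MT2C_viii (-0.34) and MT2C_vi (-0.32) did not pass (adjusted p from 0.0527 to 0.563 by edgeR's quasi-likelihood test). Under TMM scaling MT2C_i (-0.95), MT2C_vii (-0.91), MT2C_iii (-0.69) and MT2C_Mm (-0.64) were called lower, MT2C_iv and MT2C_v were not called, and MT2C_ii, MT2C_viii and MT2C_vi had positive values.

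**Figure D5:**
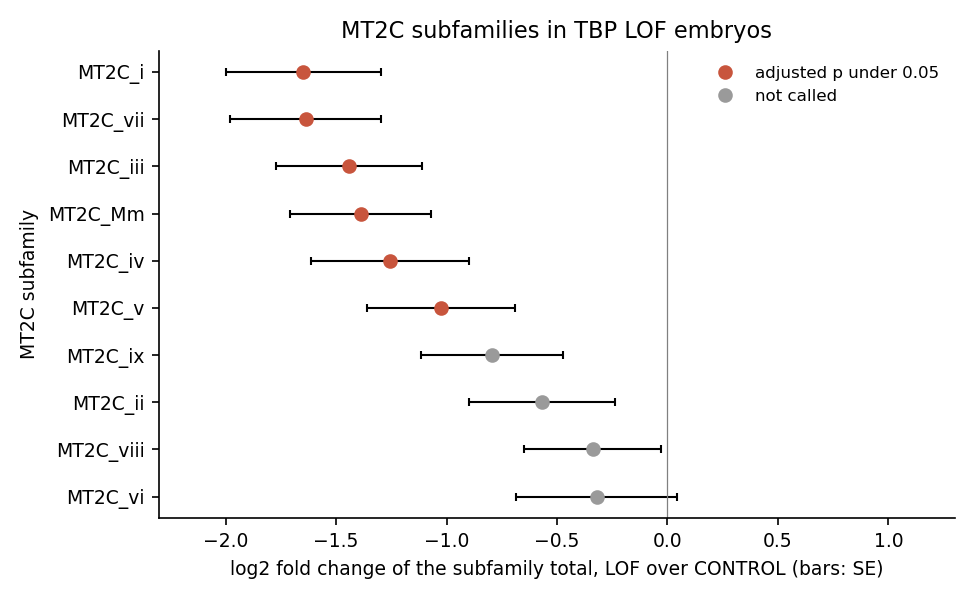
Log2 fold change of the total of each MT2C subfamily (horizontal axis, LOF over CONTROL, n = 9 embryos per group, bars: SE), with subfamilies at adjusted p below 0.05 in red. The values run from -1.65 for MT2C_i to -0.32 for MT2C_vi.

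Among single insertions of the subfamilies, 15 of 39 MT2C_v insertions were lower (38.5%), 24 of 71 MT2C_iii (33.8%), 13 of 41 MT2C_i (31.7%), 38 of 123 MT2C_vii (30.9%) and 9 of 30 MT2C_ii (30%). MT2C_Mm itself had 23 of 97 lower (23.7%), MT2C_viii 9 of 44 (20.5%) and MT2C_vi 10 of 51 (19.6%). Of MT2C_ix, 16 of 111 were lower (14.4%), and of MT2C_iv 2 of 13 (15.4%), both near the background of 14.6%. These counts include insertions without a LOF read, which had to be lower. With a read in both groups, against a background of 12.8%, the lower shares were 31.4% for MT2C_v (11 of 35), 28.6% for MT2C_vii (34 of 119), 28.2% for MT2C_i (11 of 39), 27.6% for MT2C_ii (8 of 29), 25.4% for MT2C_iii (16 of 63), 21.3% for MT2C_Mm (20 of 94), 18% for MT2C_vi (9 of 50) and 16.7% for MT2C_viii (7 of 42), and those of MT2C_ix and MT2C_iv did not change. MT2C_ix was also the subfamily with the highest share of annotated insertions that met the condition, 68.9% of 161. Whether subfamilies differed from each other was not tested.

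A list of 16 genes comprised activators and repressors of ERVL LTRs and other genes of the 2-cell stage. In TBP LOF embryos 8 of the 16 were lower and 0 higher by edgeR's quasi-likelihood test, with 0 higher also at an unadjusted p below 0.05, and under TMM 3 were lower and 2 higher. The background of that fit was 29.7% lower and 1.34% higher, and under TMM 12.7% lower and 12.8% higher. Dppa2 and Dppa4, activators of Dux, were lower under both scalings (-2.32 ± 0.35, adjusted p = 5.28e-07 and -2.20 ± 0.33, adjusted p = 4.89e-07 with spike-ins). The same held for Chaf1b, a subunit of the chromatin assembly factor CAF-1 (-2.46 ± 0.45, adjusted p = 1.43e-05). Trim28 and Setdb1, which silence endogenous retroviruses through H3K9 methylation, were lower with spike-ins only (-1.29 ± 0.32, adjusted p = 0.00107 and -1.16 ± 0.37, adjusted p = 0.0125). So were Nr5a2, an orphan nuclear receptor (-1.14), Chaf1a, the large subunit of CAF-1 (adjusted p = 0.0216), and Ehmt2, an H3K9 methyltransferase (-1.75). Duxf3 (Dux), which activates MT2_Mm, had at most 1.66 scaled reads in a CONTROL and 1.45 in a LOF embryo. Obox5 and Zfp352 were called higher under TMM only (1.16 and 1.33).

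In FOXJ3 LOF embryos none of the 5 family totals was called. Of 19517 genes and TE families, 0.0102% were lower and 0 higher in this experiment by edgeR's quasi-likelihood test, with 1115 at an unadjusted p below 0.05. Foxj3 mRNA was not called (0.28 ± 0.13, adjusted p = 0.862). MT2B had 3027, 6566 and 9959.6 scaled reads in the lowest, median and highest CONTROL embryo and 4569, 6795 and 8714 in FOXJ3 LOF embryos, a log2 fold change of -0.0044 with a 95% interval from -0.31 to 0.30. MT2C_Mm had 15489, 33462 and 46524 in CONTROL and 18834, 34754 and 45058 in LOF embryos, at 0.073 (interval -0.23 to 0.38). The groups overlapped in both. MT2B2 was at -0.054 (-0.34 to 0.24), MT2B1 at -0.16 (-0.42 to 0.096) and MT2A at -0.21 (-0.47 to 0.052). Both experiments were scaled differently, and the difference between them was not tested.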

How the data were processed

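Per the paper's methods and the labels, reads were trimmed with Trimmomatic, those from transcript 5' ends were kept and mapped to GRCm38 with STAR 2.7.11a. The deposited estimated counts (expected counts) were made by the authors with TEcount for genes and TE families and TElocal for insertions. They are whole numbers without normalization. The sources used here do not state how reads of several copies were divided or whether strand was used.

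Here, subfamily rows were added to their families. Embryos were kept with 500000 or more counted reads and 1000 or more genes with a read, mitochondrial reads up to 10% and ERCC reads up to 15%. A feature was tested when 25% or more of embryos had a read. The quasi-likelihood F test of edgeR 4.0.16 (R 4.3.3) was two-sided, with Benjamini-Hochberg adjustment over all features and a threshold of 0.05. Each standard error is the log2 fold change over the root of F, and 95% intervals follow from it. Size factors of TBP embryos were medians of ratios of 42 spike-in transcripts found in all of them. TMM was used for FOXJ3 embryos, and library batch was a term of that model. Ratios (1 read added), shares and numbers of insertions were compared by exact permutation over embryos (Python 3.11.15, scipy 1.17.1), adjusted within each family of tests. Floors of 3 reads cover counting error only, and p-values measure the spread between single embryos. Per embryo, insertion sums differed from the family rows by medians of -0.372% (MT2B1) to -4% (MT2A).

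Named insertions are, per family, the called insertions with the smallest adjusted p (2 lower and 2 higher) and the 3 with the most scaled reads. MT2B_dup11002 was added after its values were seen. Members, lists and tests were chosen with earlier results of these data known. Other scalings and filters, DESeq2 1.42.0, a replicate block and left-out embryos were the alternatives, and the fits were tested on simulated counts.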

Additional observations from a re-analysis of the deposited data

Results flagged for a closer look

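In 178 groups of embryos, 22 single values lay far from the rest of their group by Dixon's criterion. Chance meets this criterion in about 1 in 20 groups if values are normally distributed. Scaled reads of single insertions can be skewed, so the number of flagged values cannot be judged against this rate. Some flagged values, as in MT2B1_dup3037 and MT2C_Mm_dup1094_MT2C_iv, rest on few reads. Scaled reads are given with the nearest other value of the group.

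CONTROL embryo 8 was high in the MT2B total (9991 against a next value of 7354), in MT2B_dup9633 (3783 against a next value of 2479), in MT2A_dup3407 (59.4 against a next value of 25.7), in MT2B1_dup2644 (135 against a next value of 77.5) and in MT2C_Mm_dup496_MT2C_vii (296 against a next value of 179). CONTROL embryo 2 was high in MT2B_dup11018 (308 against a next value of 83.1), MT2B_dup11007 (127 against a next value of 29.9) and MT2B1_dup5714 (46.1 against a next value of 21.6), which were higher in LOF embryos. It was also high in MT2A_dup8886 (14.9 against a next value of 4.75) and MT2C_Mm_dup1094_MT2C_iv (1.36 against a next value of 0.339). CONTROL embryo 9 was high in MT2A_dup4584 (23.8 against a next value of 10.8) and CONTROL embryo 1 in MT2B_dup11226 (155 against a next value of 51.2).

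LOF embryo 8 was high in MT2A_dup3407 (31.8 against a next value of 10.9) and MT2C_Mm_dup1094_MT2C_iv (17.5 against a next value of 3.69). LOF embryo 6 was high in MT2B1_dup3037 (1.21 against a next value of 0) and MT2C_Mm_dup496_MT2C_vii (22.9 against a next value of 9.02), LOF embryo 7 in MT2B_dup11226 (2.46 against a next value of 0.732) and LOF embryo 10 in MT2B1_dup2644 (10.7 against a next value of 2.45).

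The log2 ratio of MT2A to MERVL_2A-int was low in CONTROL embryo 3 (-1.04 against a next value of -0.49) and that of MT2B2 to MT2_Mm in LOF embryo 9 (-5.32 against a next value of -3.94). The percentage of MT2B2 reads in its 10 leading insertions was high in CONTROL embryo 9 (59.0 against a next value of 49.9). In the FOXJ3 experiment, rabbit IgG embryo 7 of batch 2 was high in the MT2B total (9448 against a next value of 7302).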

How the results depend on the processing

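TMM scaling and DESeq2 size factors take the bulk of features as not changed and gave fewer lower and more higher calls. Under TMM the counts of called insertions were 174 for all families lower, 31 for all families higher, 3 for MT2A lower, 27 for MT2B lower, 17 for MT2B1 higher, 40 for MT2B2 lower, 5 for MT2B2 higher, 88 for MT2C_Mm lower and 6 for MT2C_Mm higher, and under DESeq2 size factors 181 for all families lower, 33 for all families higher, 3 for MT2A lower, 27 for MT2B lower, 17 for MT2B1 higher, 40 for MT2B2 lower, 7 for MT2B2 higher, 94 for MT2C_Mm lower and 6 for MT2C_Mm higher. Over all features 6.76% were lower and 2.63% higher under TMM, and 6.94% and 3.57% under DESeq2 size factors. TBP family totals under TMM were -0.011 for MT2A, -0.44 for MT2B, 0.61 for MT2B1, 0.051 for MT2B2, -0.21 for MT2C_Mm, 1.04 for MT2_Mm, 0.58 for MERVL-int, 0.21 for MERVL_2A-int, -0.87 for ORR1A0 and -1.45 for ORR1A1, and under DESeq2 size factors 0.012 for MT2A, -0.44 for MT2B, 0.62 for MT2B1, 0.056 for MT2B2, -0.20 for MT2C_Mm, 0.58 for MERVL-int and 0.22 for MERVL_2A-int. Subfamily totals under TMM were -0.64 for MT2C_Mm, -0.95 for MT2C_i, 0.16 for MT2C_ii, -0.69 for MT2C_iii, -0.53 for MT2C_iv, -0.099 for MT2C_ix, -0.16 for MT2C_v, 0.37 for MT2C_vi, -0.91 for MT2C_vii and 0.43 for MT2C_viii. Single insertions changed sign at 0.10 for MT2B1_dup4621 and 0.17 for MT2B2_dup1390 under TMM and 0.13 for MT2B1_dup4621 and 0.13 for MT2B2_dup1390 under DESeq2 size factors.

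With filterByExpr, which tested 240 of the insertions, the counts were 100 for all families lower, 1 for MT2A lower, 14 for MT2B lower, 8 for MT2B1 lower, 19 for MT2B2 lower, 0 for MT2B2 higher, 58 for MT2C_Mm lower and 0 for MT2C_Mm higher, and with a mean of at least 10 reads (313 tested) 130 for all families lower, 2 for MT2A lower, 18 for MT2B lower, 13 for MT2B1 lower, 24 for MT2B2 lower, 1 for MT2B2 higher, 73 for MT2C_Mm lower and 0 for MT2C_Mm higher. Without a filter they were 17 for MT2A lower and 1 for MT2A higher, and by the DESeq2 test 0 for MT2C_Mm higher, with 322 lower in all, 259 of them shared. Over all features, 37.8% were lower and 1.35% higher with filterByExpr, 32.9% and 1.40% with the read minimum, 3.80% and 0.295% without a filter and 15% and 0.535% by DESeq2. With all 19 embryos the ratio changed to 0.55 for MT2A to MT2B, which then passed the threshold (exact permutation test, adjusted p = 0.0317). The difference in the share of reads (percentage points) was -1.41 for MT2B, 0.325 for MT2B1 and -0.789 for MT2B2 with 5 leading insertions and 0.0534 for MT2A and 1.49 for MT2B1 with 50, of which that of MT2B1 with 50 passed the threshold. Without thinning the number of detected insertions differed by -16.1 for MT2A.

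Whether same-numbered LOF and CONTROL embryos shared a collection round is not known, and a block by number need not account for the round. The correlations of their deviations ran from -0.185 to 0.25 over 7 pairs, and 1 of 7 embryos correlated best with its own number. With the replicate number as a block the counts were 175 for all families lower, 2 for MT2A lower, 25 for MT2B lower, 36 for MT2B2 lower and 90 for MT2C_Mm lower, where 175 is 14.1% of the insertions, against 6.68% of all features, and 144 of them were shared. Totals with this block were -1.001 for MT2B2 in TBP embryos, which was then called lower, and 0.13 for MT2B, 0.080 for MT2B2 and 0.0064 for MT2_Mm in FOXJ3 embryos. Over the 7 pairs, where a sign permutation cannot go below p = 0.0156, the ratios whose side of the threshold or sign changed were -0.48 for MT2A to MT2B1, -0.32 for MT2B to MT2B2, -0.18 for MT2B to MT2C_Mm, -0.57 for MT2B1 to MT2_Mm, -0.14 for MT2B1 to MERVL-int, 0.57 for MT2B2 to ORR1A0, 1.14 for MT2B2 to ORR1A1, -0.80 for MT2C_Mm to MERVL_2A-int, 0.42 for MT2C_Mm to ORR1A0 and 1.00 for MT2C_Mm to ORR1A1.

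FOXJ3 totals, none of them called, changed sign at 0.18 for MT2B, 0.029 for MT2B1, 0.12 for MT2B2, 0.091 for MT2_Mm, 0.089 for MERVL-int, 0.16 for MERVL_2A-int and 0.017 for ORR1A1 with ERCC size factors, 0.21 for MT2B and 0.034 for MT2B2 in batch 1, -0.21 for MT2C_Mm, 0.036 for MT2_Mm and 0.044 for MERVL_2A-int in batch 2 and 0.012 for MT2B, 0.055 for MT2_Mm and 0.029 for MERVL_2A-int with all embryos.

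Leaving out 1 embryo at a time, the counts ran from 1 to 3 for MT2B2 higher, 6 to 13 for MT2B1 higher, 0 to 2 for MT2C_Mm higher, 5 to 9 for MT2A lower and 10 to 21 for all families higher. The totals ran from -1.04 to -0.58 for MT2B2 in TBP and -0.15 to 0.048 for MT2_Mm, -0.078 to 0.051 for MT2B and -0.10 to 0.019 for MT2B2 in FOXJ3 embryos, the ratios from -0.14 to 0.23 for MT2A to MT2B2, -0.28 to -0.19 for MT2B to MT2C_Mm, 0.29 to 0.44 for MT2B to ORR1A0, -0.60 to -0.35 for MT2A to MERVL-int, -0.51 to -0.32 for MT2B to MT2B2, -0.75 to -0.47 for MT2B2 to MERVL-int, 0.37 to 0.62 for MT2A to MT2B, -0.26 to 0.0016 for MT2A to MERVL_2A-int, 0.28 to 0.55 for MT2B1 to MERVL_2A-int, 0.11 to 0.25 for MT2B2 to MT2C_Mm, -0.018 to 0.19 for MT2B1 to MERVL-int and -0.62 to -0.36 for MT2C_Mm to MERVL_2A-int, and the fold change of a single insertion from -0.21 to 0.16 for MT2B2_dup2719. Calls gained this way, with the embryo left out, were MT2A to MT2B (LOF 6, 7 or 10), MT2A to MERVL-int (LOF 2 or 9), MT2B1 to MERVL_2A-int (LOF 6), MT2B2 to MT2C_Mm (LOF 9) and MT2C_Mm to MERVL_2A-int (LOF 11). The cause of these changes was not tested. A mean under 3 reads was found for 662 of the 1241 insertions, and values at this level rest on few reads.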
